A study of Homo sapiens with 24 samples.

Results

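The SR, hnRNP and CLK splicing regulators are a list of 50 genes whose proteins set which exons of a transcript are kept. They were selected by gene symbol, and all 50 were measured among the 18239 genes that have a named probe set on the array. The list holds 11 SR proteins, 2 TRA2 proteins, 6 kinases of SR proteins, 5 RS-rich and nuclear speckle proteins, 3 LUC7-like proteins, 15 hnRNP and PTB proteins, 4 RBM proteins, 2 U2AF subunits and 2 proteins of the exon junction complex. A gene's values are those of its brightest probe set unless another is named, and the 50 genes have 236 probe sets in all. Values are log2 signals, and a difference of 1 is a doubling of the signal; levels of different probe sets were not set against each other. All values are signals of transcripts, also where a gene is called by its protein.

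RNA of HCT116, an established human colon cancer line, was measured on 24 arrays, 3 for each of 8 groups. The ESR2 cells carried full-length ESR2, the gene of estrogen receptor β, fused to an N-terminal HaloTag. It was delivered with the lentiviral vector pWPI-IRES-GFP-PGK-Puro, and the cells were selected with puromycin and used as a pool in which most cells were GFP positive, not as 1 clone. They were kept in hypoxia with 10 nM 17β-estradiol, in hypoxia without it, in normoxia with estradiol and in normoxia without it. The parental cells, with the genotype label WT, were kept under the same 4 conditions. For hypoxia a mixture of nitrogen and CO2 replaced the air of the incubator. The labels name neither its length, nor a vector control, nor the medium of the groups without estradiol. Estradiol was given in phenol-red-free DMEM with stripped serum. The labels do not say that replicates came from separate cultures, so the p-values measure the spread between these arrays, which may be technical.

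SR proteins carry an RNA-binding domain and a stretch rich in arginine and serine, bind enhancer sequences in exons and recruit the spliceosome to them. Many hnRNP proteins bind silencer sequences and oppose inclusion of the exon. The CLK and SRPK kinases phosphorylate the arginine-serine stretch, which moves SR proteins between nuclear speckles and active splicing sites. Many of these genes also splice their own transcripts into forms with a poison exon or a retained intron, so that probe sets at different places of a gene can follow different transcripts. Hypoxia is known to change the splicing of many transcripts in cancer cells.

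Array medians lay between 4.07 and 4.13. Replicates correlated at 0.9956 or more within 7 groups, while replicate 2 of the normoxic parental cells without estradiol lowered that group's value to 0.988. A 3′ minus 5′ index was taken from Affymetrix control probe sets, as the mean over beta-actin and the spike-ins dap and thr. Spike-ins are RNAs added to a sample, so the index does not measure the integrity of the cells' RNA alone. It was 3.74 ± 0.30 in hypoxic ESR2 cells with estradiol, against group means of 2.10 to 3.20 in the other 7 groups (SD, n = 3 each). The ESR2 probe set was higher in ESR2 cells, at 4.51 ± 0.44 against 3.47 ± 0.11 in parental cells in normoxia without estradiol (limma adjusted p = 6.44e-06). Of 7 genes known to rise in hypoxia, ADM and NDRG1 among them, 6 rose in hypoxic ESR2 cells with estradiol, 7 in those without it, and 7 in parental cells with and without it. Without estradiol the mean log2 signal of the 7 was 9.52 in hypoxic and 7.12 in normoxic ESR2 cells, against 10.16 and 6.97 in parental cells. With estradiol it was 9.32 and 7.14 in ESR2 cells, against 10.16 and 6.99 in parental cells. The mean of this list thus rose less in ESR2 cells. Of 8 colon epithelial markers, 6 lay above the array median in every group, against 0 of 6 fibroblast markers and 1 of 5 leukocyte markers (CD68). In these bulk samples fewer cells of a type and less RNA per cell cannot be told apart.

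Promoters of 6 regulators on which the results turn are shown first. They are the 250 bases before the annotated start, 5′ to 3′ on the gene's strand, from RefSeq on GRCh38.p14. Capitals mark ACGTG and GCGTG, the core letters of the hypoxia response element, to which HIF binds, on either strand, so that CACGT and CACGC are capitals too. RSRP1 (chr1:25338255-25338504, minus strand) encodes a little-characterised arginine- and serine-rich protein. CLK1 (chr2:200864562-200864811, minus strand) and CLK4 (chr5:178627051-178627300, minus strand) encode SR protein kinases. SRSF5 (chr14:69766892-69767141, plus strand) encodes an SR protein, LUC7L (chr16:229450-229699, minus strand) a protein related to a yeast U1 snRNP component, and RBM5 (chr3:50088669-50088918, plus strand) an RNA-binding regulator of apoptosis genes' splicing.
RSRP1: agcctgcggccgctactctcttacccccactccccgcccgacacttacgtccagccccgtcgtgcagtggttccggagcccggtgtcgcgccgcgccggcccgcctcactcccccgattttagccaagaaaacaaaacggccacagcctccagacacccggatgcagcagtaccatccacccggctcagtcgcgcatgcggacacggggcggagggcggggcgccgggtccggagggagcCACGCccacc
CLK1: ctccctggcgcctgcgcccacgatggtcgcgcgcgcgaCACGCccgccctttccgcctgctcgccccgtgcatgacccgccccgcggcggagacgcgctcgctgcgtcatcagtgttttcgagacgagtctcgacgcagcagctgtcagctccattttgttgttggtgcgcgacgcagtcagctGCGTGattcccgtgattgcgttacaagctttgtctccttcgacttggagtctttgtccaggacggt
CLK4: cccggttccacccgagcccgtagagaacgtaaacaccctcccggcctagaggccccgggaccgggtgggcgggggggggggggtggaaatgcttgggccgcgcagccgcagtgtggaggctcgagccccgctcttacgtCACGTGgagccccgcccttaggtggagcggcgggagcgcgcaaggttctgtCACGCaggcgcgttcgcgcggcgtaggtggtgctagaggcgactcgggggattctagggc
SRSF5: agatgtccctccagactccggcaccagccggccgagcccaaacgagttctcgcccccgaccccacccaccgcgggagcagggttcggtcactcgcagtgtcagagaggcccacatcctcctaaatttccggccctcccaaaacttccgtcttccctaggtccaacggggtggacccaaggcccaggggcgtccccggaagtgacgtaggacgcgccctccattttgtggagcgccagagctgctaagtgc
LUC7L: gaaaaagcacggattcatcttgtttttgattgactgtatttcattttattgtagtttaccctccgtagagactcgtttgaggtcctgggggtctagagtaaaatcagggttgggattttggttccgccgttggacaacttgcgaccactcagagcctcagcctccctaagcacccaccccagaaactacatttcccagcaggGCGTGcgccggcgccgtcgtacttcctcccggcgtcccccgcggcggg
RBM5: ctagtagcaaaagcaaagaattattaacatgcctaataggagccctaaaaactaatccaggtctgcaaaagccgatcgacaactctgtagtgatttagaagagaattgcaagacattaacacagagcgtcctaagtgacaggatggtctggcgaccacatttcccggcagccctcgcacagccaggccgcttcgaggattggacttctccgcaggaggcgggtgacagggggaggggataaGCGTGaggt
The CLK1 window is the first of those that RefSeq gives for it. GCGTG occurred 2 times in it, 1 time each in the RSRP1, CLK4, LUC7L and RBM5 windows, and 0 times in the SRSF5 window. ACGTG occurred 2 times in the CLK4 window, on opposite strands of the same CACGTG, and 0 times in the other 5. RefSeq windows were found for 46 of the 50 regulators, 65 windows in all; HNRNPA1, RBM39, SRSF2 and TRA2A were not matched. ACGTG was in 32.3% of these windows, against 18.5% of all 35116 promoter windows, and GCGTG in 63.1%, against 32.2%. The median GC content was 64.4% in the regulators' windows, against 58.0% in all windows. A match describes letters and not a bound site, and no motif match was compared with the change of a gene.

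**Figure D1:**
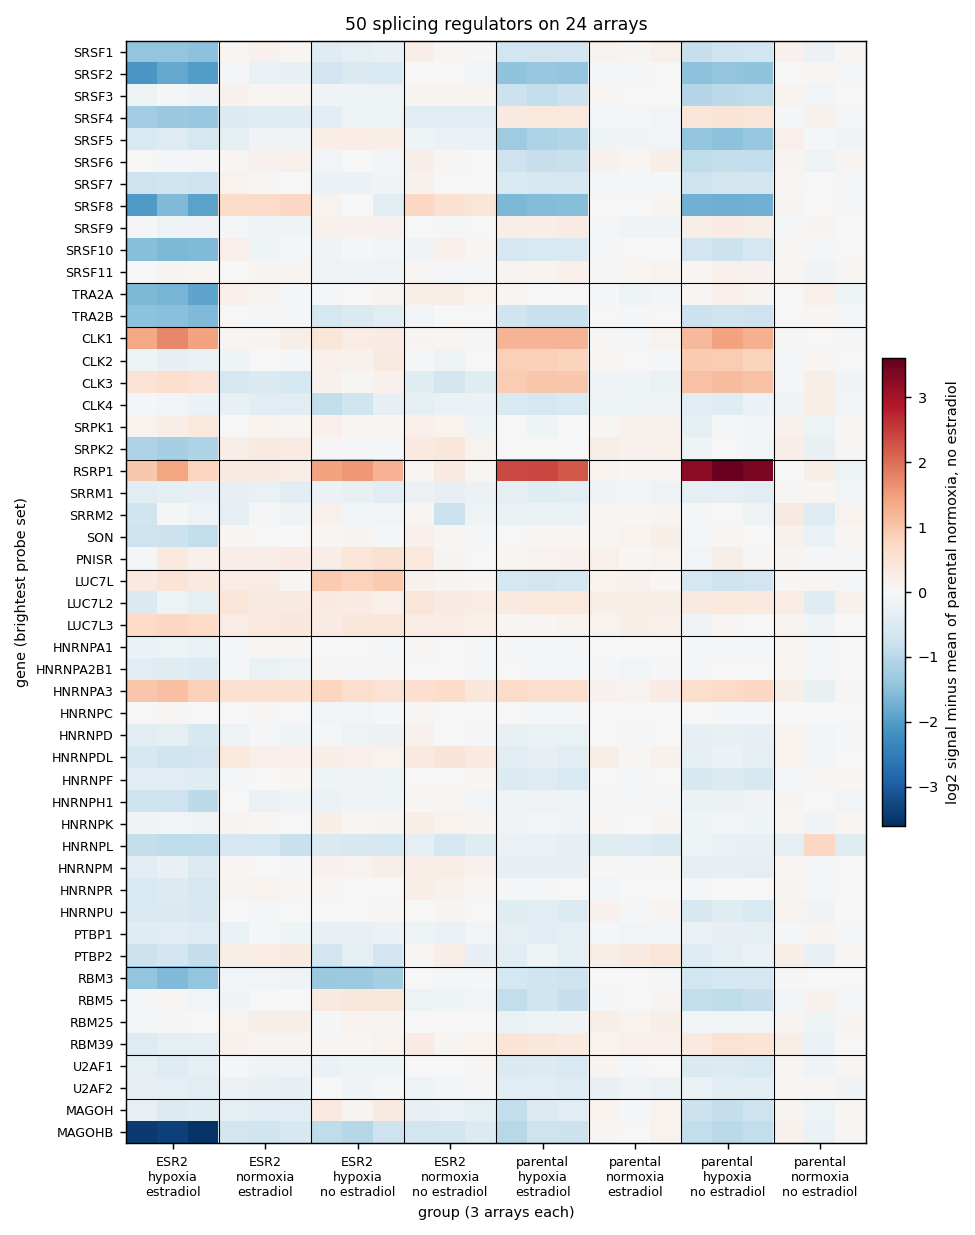
Log2 signal of the 50 splicing regulators (down the page, by role) on the 24 arrays (across, by group), as the difference from the mean of normoxic parental cells without estradiol. Red is higher and blue lower. MAGOHB is the deepest blue, in hypoxic ESR2 cells with estradiol, and RSRP1 the deepest red, in hypoxic parental cells.

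In hypoxic parental cells most SR proteins fell and the kinases CLK1, CLK2 and CLK3 rose. Without estradiol, 34 of the 50 regulators passed the test, 9 higher and 25 lower (limma, adjusted p under 0.05), beside 37.5% of all genes, 16.4% higher and 21.2% lower. The median log2 change of the 50 was -0.25, beside 0.00 over all genes. With replicate 2 of the normoxic group left out, 36 passed, 8 higher and 28 lower.

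RSRP1 had the largest change of the 50. Its signal was 8.01, 8.32 and 8.14 in hypoxic parental cells, against 4.73, 4.96 and 4.57 in normoxic parental cells. Every hypoxic array was far above every normoxic array, and the change was 3.40 ± 0.13 on the log2 scale (SE), a 10.6-fold rise (limma adjusted p = 6.69e-16). A pair of further RSRP1 probe sets rose by 2.57 and 2.44, and the remaining pair, with means of 2.89 and 2.46 over the 24 arrays, had log2 differences of 0.22 and 0.08 and did not pass.

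Among the 6 kinases 3 rose and 1 fell. CLK1, a dual-specificity kinase of SR proteins, had 8.76, 9.02 and 8.87 in hypoxic parental cells, against 7.63, 7.60 and 7.53 in normoxic ones. The groups did not overlap, and CLK1 rose by 1.30 ± 0.09 (limma adjusted p = 1.66e-11). CLK3 rose by 1.08 ± 0.08 and CLK2 by 0.88 ± 0.07. The brightest CLK4 probe set fell by 0.35 ± 0.11 (limma adjusted p = 0.0146), whereas 5 other probe sets of CLK4 rose, as described further on. SRPK1 and SRPK2, which phosphorylate SR proteins mainly in the cytoplasm, had log2 differences of -0.16 and -0.09 and did not pass. Without replicate 2 of the normoxic parental cells the brightest CLK4 probe set lost its call, at -0.23 (limma adjusted p = 0.12), as it did without replicate 1 or replicate 2 of the hypoxic cells. Without that normoxic array SRPK1 and SRPK2 passed, at -0.25 and -0.22.

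Of the 11 SR proteins 8 fell and 2 rose, with a median of -0.74. SRSF2, which binds exonic enhancers and is needed for many constitutive exons, had 9.05, 9.11 and 9.08 in hypoxic parental cells, against 10.52, 10.60 and 10.45 in normoxic ones. SRSF5 had 8.03, 7.97 and 8.10 in hypoxic parental cells, against 9.62, 9.40 and 9.33 in normoxic ones. In both genes the hypoxic arrays lay more than 1 log2 unit below the lowest normoxic array; SRSF2 fell by 1.45 ± 0.07 (limma adjusted p = 1.17e-13) and SRSF5 by 1.42 ± 0.08 (limma adjusted p = 3.96e-13). SRSF8, an intronless paralog of SRSF2, fell by 1.74 ± 0.11; whether probes of one bind transcripts of the other was not tested. SRSF3, SRSF6, SRSF1, SRSF7 and SRSF10 fell by 0.97, 0.89, 0.74, 0.70 and 0.69. SRSF4 rose by 0.46 ± 0.07 and SRSF9 by 0.23 ± 0.06, and SRSF11 (0.14) did not pass.

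Of the 15 hnRNP and PTB proteins 1 rose and 7 fell, with a median of -0.22: HNRNPA3 rose by 0.69, while HNRNPF, HNRNPU, HNRNPM, HNRNPDL, HNRNPD, PTBP2 and PTBP1 fell by 0.28 to 0.55. The abundant HNRNPA1, HNRNPA2B1 and HNRNPC had log2 differences of -0.04, -0.02 and -0.04 and did not pass. HNRNPH1, HNRNPK, HNRNPL and HNRNPR, at -0.22 to -0.02, did not pass either. HNRNPL was 9.78, 9.72 and 9.67 in hypoxic parental cells, against 9.63, 10.70 and 9.51 in normoxic ones, where replicate 2 stood apart; without it the difference was 0.15, and HNRNPK fell by 0.20 (limma adjusted p = 0.00858). The call of PTBP2 ended without replicate 1 of the normoxic cells, at -0.22 (limma adjusted p = 0.221), and without 3 other single arrays. TRA2B, an enhancer-binding partner of SR proteins, fell by 0.75, and TRA2A (0.10) did not pass. The paralogs MAGOH and MAGOHB, core subunits of the exon junction complex left on spliced RNA, fell by 0.79 and 0.92, and both subunits of U2AF, which recognises the 3′ splice site, fell by 0.52 (U2AF1) and 0.33 (U2AF2). RBM5 fell by 0.88, RBM3, a cold-inducible RNA-binding protein, by 0.63 and LUC7L by 0.68. RBM39, a U2AF-related coactivator, rose by 0.45 and LUC7L2 by 0.35. LUC7L2 was 9.64, 9.69 and 9.67 in hypoxic parental cells, against 9.59, 8.89 and 9.48 in normoxic ones, and without replicate 2 of the normoxic cells its change was 0.13 (limma adjusted p = 0.239). Its call also ended without replicate 2 or replicate 3 of the hypoxic cells. Beside RSRP1, the speckle protein SRRM1 fell by 0.36. SRRM2, SON, PNISR, LUC7L3 and RBM25, at -0.10 to 0.04, did not pass. Without the same array SRRM2 was at -0.31, still not passing, and RBM25 fell by 0.19 (limma adjusted p = 0.0154).

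The same comparison on the 6 separate arrays with estradiol gave 8 higher and 27 lower (34.8% of all genes called, 16.1% higher and 18.7% lower). Of the regulators 33 passed in both, 8 higher and 25 lower in each, which is 94.3% of those with and 97.1% of those without estradiol. The share of all genes that passed in both is not given here. Across the 50 genes the changes with and without estradiol correlated at 0.97, given as a description, since genes on the same arrays are not independent. RSRP1 was 7.12, 7.17 and 6.98 in hypoxic parental cells with estradiol, against 4.88, 4.84 and 4.83 in normoxic ones with estradiol. Its groups did not overlap, and it rose by 2.24 ± 0.13. CLK1 rose by 1.18, SRSF8 fell by 1.60, SRSF2 by 1.38 and SRSF5 by 1.02.

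**Figure D2:**
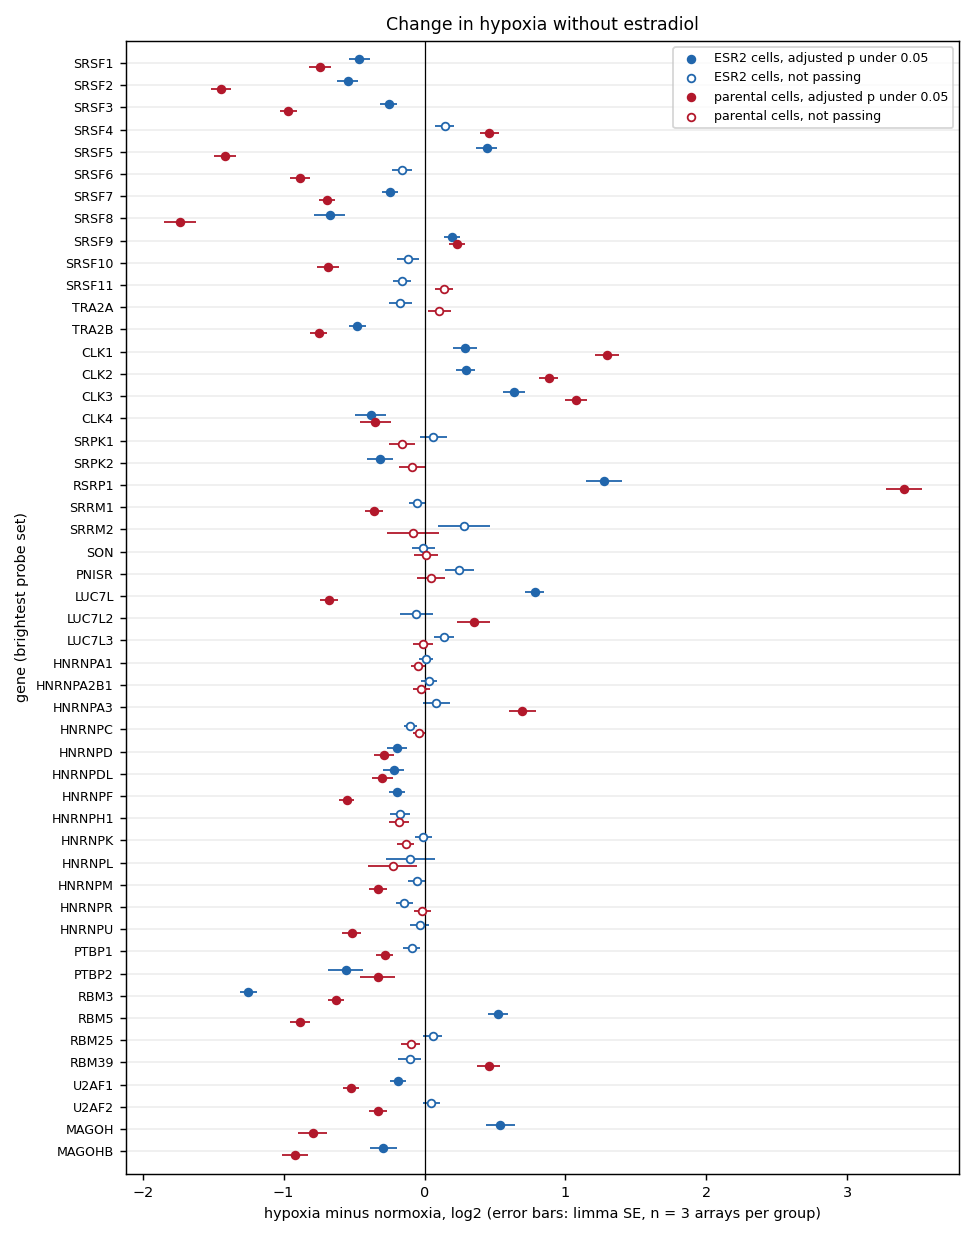
Change under hypoxia (log2 hypoxia minus normoxia, ± SE, x axis) of each regulator (down the page) in ESR2 cells (blue) and parental cells (red), without estradiol; filled points passed the test. RSRP1 lies at 1.27 in ESR2 and 3.40 in parental cells without estradiol, and SRSF5, LUC7L, RBM5 and MAGOH lie right of 0 in ESR2 cells and left of 0 in parental cells.

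In ESR2 cells without estradiol hypoxia changed 24 regulators, 4 of them in the direction opposite to parental cells. The count was 9 higher and 15 lower of 50, beside 32.6% of all genes, 14.4% higher and 18.2% lower. The medians were -0.07 for the regulators and -0.06 for all genes. The share of all genes that passed in opposite directions in ESR2 and parental cells is not given here. Of the 11 SR proteins 2 rose and 5 fell (median -0.16), and of the 6 kinases 3 rose and 2 fell (median 0.18). RBM3 fell by 1.25 ± 0.06, SRSF8 by 0.67, PTBP2, a neuronal paralog of the splicing repressor PTBP1, by 0.56, SRSF2 by 0.55 and TRA2B by 0.48. The fall of RBM3 is that of the brighter of its 2 probe sets. The other, tested on its own, rose and passed. RSRP1 rose by 1.27 ± 0.13, CLK3 by 0.63, and CLK1 and CLK2 by 0.29 each. CLK1 lost its call without replicate 1 of the hypoxic ESR2 cells, at 0.23 (limma adjusted p = 0.0772), and without replicate 3 of the normoxic ones.

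SRSF5, LUC7L, RBM5 and MAGOH rose in hypoxic ESR2 cells and fell in hypoxic parental cells. SRSF5 was 9.70, 9.71 and 9.69 in hypoxic ESR2 cells, against 9.30, 9.25 and 9.22 in normoxic ESR2 cells. LUC7L was 7.93, 7.81 and 7.94 in hypoxic ESR2 cells, against 7.15, 7.10 and 7.07 in normoxic ones. In both genes the hypoxic ESR2 arrays lay above all others of ESR2 cells, while the hypoxic parental arrays, 6.36, 6.26 and 6.31 for LUC7L against 7.03, 7.02 and 6.92 in normoxic parental cells, lay below.

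RBM5 was 7.95, 8.05 and 8.05 in hypoxic ESR2 cells, against 7.46, 7.48 and 7.55 in normoxic ESR2 cells, and 6.75, 6.71 and 6.79 in hypoxic parental cells, against 7.53, 7.78 and 7.60 in normoxic parental cells. MAGOH was 9.36, 9.10 and 9.34 in hypoxic ESR2 cells, against 8.75, 8.77 and 8.68 in normoxic ESR2 cells, and 8.23, 8.14 and 8.26 in hypoxic parental cells, against 9.10, 8.83 and 9.08 in normoxic parental cells. No group overlapped its normoxic counterpart in either gene. The rises in ESR2 cells were 0.44 ± 0.08 for SRSF5 (limma adjusted p = 7.54e-05), 0.78 ± 0.07 for LUC7L (limma adjusted p = 3.26e-09), 0.52 ± 0.07 for RBM5 (limma adjusted p = 3.51e-06) and 0.54 ± 0.10 for MAGOH (limma adjusted p = 0.000249).

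Most other probe sets of these genes moved the same way. All 4 of MAGOH rose in ESR2 cells, by 0.54 to 0.74, and fell in parental cells, by 0.69 to 0.85. The 5 RBM5 probe sets above the array medians rose by 0.42 to 0.58 in ESR2 cells and fell by 0.88 to 1.20 in parental cells, where a dim further one rose by 0.36. Of the 4 LUC7L probe sets 3 rose in ESR2 cells and 4 fell in parental cells. SRSF5 has 11 probe sets. Of the 8 with means above 7, 8 rose in ESR2 cells, by 0.44 to 1.01, and 6 fell in parental cells. The changes of the other 2 in parental cells, -0.51 and -0.48, did not pass. A dim SRSF5 probe set, with a mean of 3.22 over the 24 arrays, rose there by 0.32. The changes of the remaining SRSF5 probe sets, with means not above 7, are not given here.

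**Figure D3:**
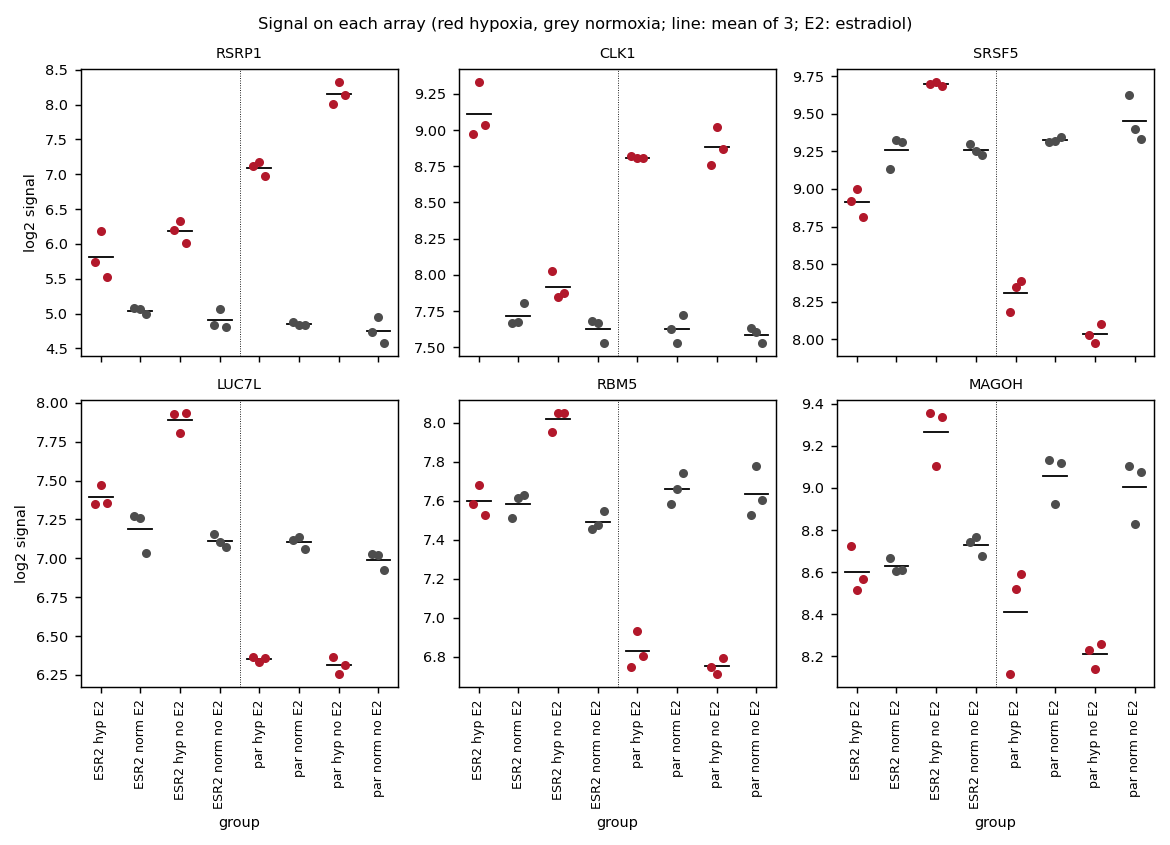
Log2 signal (y axis) of RSRP1, CLK1, SRSF5, LUC7L, RBM5 and MAGOH on each array, in the 8 groups of 3 arrays (x axis). Points are arrays and lines the group means, red in hypoxia and grey in normoxia; E2 is estradiol and par parental. Hypoxic ESR2 cells without estradiol hold the highest LUC7L values, 7.81 to 7.94, and hypoxic parental cells without estradiol the highest RSRP1 values, 8.01 to 8.32.

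The difference between the cells in their change under hypoxia was tested as an interaction, the change in ESR2 cells minus that in parental cells. Without estradiol 18 regulators were positive and 9 negative, beside 30.7% of all genes, 16.4% positive and 14.3% negative, with medians of 0.14 for the regulators and -0.04 for all genes. Of the 11 SR proteins 7 were positive and 2 negative (median 0.57), both U2AF subunits and both MAGOH paralogs were positive, and of the 6 kinases 0 were positive and 3 negative (median -0.34). The interaction was -2.13 ± 0.18 for RSRP1, 1.86 ± 0.11 for SRSF5, 1.46 ± 0.09 for LUC7L, 1.41 ± 0.10 for RBM5, 1.33 ± 0.15 for MAGOH and -1.01 ± 0.12 for CLK1 (limma adjusted p from 2.13e-11 to 9.14e-07). The main CLK4 probe set gave -0.03 ± 0.16 and did not pass (limma adjusted p = 0.903), while 4 other probe sets of CLK4 gave -1.46 to -1.01. With replicate 2 of the normoxic parental group left out, 20 were positive and 10 negative. The 3′ minus 5′ index differed between these groups too. Its mean was 2.10 in hypoxic and 2.71 in normoxic ESR2 cells, and 2.36 and 3.20 in parental cells. The part of this difference was not tested.

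With estradiol the largest interactions were those of TRA2A and MAGOHB, each in its brightest probe set. The interaction was positive for 10 regulators and negative for 21, beside 38.6% of all genes, 20.6% positive and 18.1% negative, with medians of -0.10 and 0.09. It was -1.96 ± 0.12 for TRA2A, -1.89 ± 0.13 for MAGOHB, -1.47 ± 0.18 for RSRP1, -1.31 ± 0.10 for SRSF4 and -1.25 ± 0.13 for SRPK2. Of the genes that rose in ESR2 cells and fell in parental cells, LUC7L did so with estradiol too in its brightest probe set. Its changes were 0.20 in ESR2 cells and -0.75 in parental cells. The call in ESR2 cells ended without replicate 3 of the normoxic arrays, at 0.13 (limma adjusted p = 0.122), and without replicate 2 of the hypoxic ones. Another LUC7L probe set, tested on its own, was called lower in hypoxic ESR2 cells with estradiol. The brightest SRSF5 probe set fell with estradiol in both, by 0.35 in ESR2 cells and 1.02 in parental cells. In each of these comparisons a further SRSF5 probe set, tested on its own, was called higher. RBM5 was 7.58, 7.68 and 7.53 in hypoxic ESR2 cells with estradiol, against 7.51, 7.61 and 7.63 in normoxic ones. MAGOH was 8.72, 8.51 and 8.57 in the former, against 8.67, 8.60 and 8.61 in the latter. The groups overlapped in both genes, so their rise in ESR2 cells was not seen with estradiol. SRSF4 and RBM39 fell in hypoxic ESR2 cells, by 0.87 and 0.50, and rose in hypoxic parental cells, by 0.44 and 0.26, where RBM39 lost its call without replicate 1 of the hypoxic arrays, at 0.23 (limma adjusted p = 0.0675). The 3′ minus 5′ index was 3.74 ± 0.30 in hypoxic ESR2 cells with estradiol, against 2.56 ± 0.02 in hypoxic parental cells with estradiol (SD, n = 3 each), and with it as a covariate 9 were positive and 22 negative.

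In normoxia 11 regulators differed between ESR2 and parental cells without estradiol. Of these 7 were higher in ESR2 cells and 4 lower, beside 18.6% of all genes, 9.76% higher and 8.86% lower; with each array centred on its median the split was 6 higher and 7 lower. MAGOHB was 7.90, 7.90 and 8.06 in ESR2 cells, against 8.71, 8.31 and 8.63 in parental cells. All 3 ESR2 arrays lay below all 3 parental arrays, with a difference of -0.60 ± 0.09 (limma adjusted p = 8.12e-05), which became -0.21 (limma adjusted p = 0.0817) in the mean of both MAGOHB probe sets. SRSF8 was higher in ESR2 cells by 0.58 ± 0.11 and HNRNPA3 by 0.56 ± 0.10, and CLK3 was lower by 0.51 ± 0.08 and SRSF4 by 0.40 ± 0.07. HNRNPDL, LUC7L2, SRPK2, LUC7L3 and HNRNPM were higher by 0.39, 0.34, 0.30, 0.24 and 0.21, and SRRM1 was lower by 0.24; for HNRNPM and LUC7L3 the mean of all probe sets had the opposite sign, -0.27 (limma adjusted p = 0.0109) and -0.079 (limma adjusted p = 0.675). Without replicate 2 of the parental cells LUC7L2, SRPK2, LUC7L3 and HNRNPM were at 0.12, 0.16, 0.16 and 0.18 and did not pass (limma adjusted p from 0.0831 to 0.385). The same 4 also lost their calls without replicate 1 and without replicate 2 of the ESR2 cells, LUC7L2 also without replicate 3, and SRRM1 without replicate 2, at -0.21 (limma adjusted p = 0.0514).

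With estradiol in normoxia 2 regulators were higher and 4 lower, beside 13.7% of all genes, 8.45% higher and 5.22% lower. Of these, 5 had also passed without estradiol: MAGOHB (-0.71), SRSF8 (0.69), CLK3 (-0.41), SRSF4 (-0.37) and HNRNPA3 (0.35). HNRNPA3 lost its call with estradiol without replicate 1 or replicate 2 of the parental cells (limma adjusted p = 0.0566 and 0.0632). The 6th, MAGOH, was lower by 0.43 ± 0.10 with estradiol, and its difference without estradiol, -0.27, did not pass.

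In hypoxia without estradiol the cells differed in 31 regulators, 22 higher in ESR2 cells and 9 lower, beside 40.4% of all genes, 20.4% higher and 20% lower. Of the 11 SR proteins 8 were higher and 2 lower (median 0.60), and of the 6 kinases 1 was higher and 4 lower (median -0.48). The comparison shares these arrays with the hypoxia comparisons. SRSF8 was 6.75, 6.62 and 6.21 in ESR2 cells, against 4.89, 4.86 and 4.89 in parental cells, and LUC7L, given above, was higher by 1.58 ± 0.07. Neither gene's groups overlapped, and SRSF8 was higher by 1.64 ± 0.11. SRSF5 was higher by 1.66, RBM5 by 1.27, MAGOH by 1.06, SRSF2 by 0.85 and SRSF6 by 0.82; RSRP1 was lower by 1.98, CLK1 by 0.97 and CLK3 by 0.95.

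In hypoxia with estradiol the split was 10 higher in ESR2 cells and 26 lower, beside 47.7% of all genes, 27.8% higher and 19.8% lower. The brightest MAGOHB probe set was 5.12, 5.19 and 5.01 in ESR2 cells, against 7.56, 7.79 and 7.79 in parental cells. TRA2A was 8.13, 8.09 and 7.87 in ESR2 cells, against 9.82, 9.79 and 9.77 in parental cells. Every ESR2 array lay more than 1 log2 unit below every parental array in both genes. The differences were -2.61 ± 0.09 for MAGOHB (limma adjusted p = 3.18e-16) and -1.76 ± 0.08 for TRA2A (limma adjusted p = 2.2e-14), and SRSF4, RSRP1, SRPK2, CLK2 and SRSF10 were lower by 1.68, 1.27, 1.15, 1.08 and 1.01. LUC7L was higher by 1.04 ± 0.07. Of the regulators 22 passed in hypoxia both with and without estradiol, 7 higher in both, 6 lower in both and 9 in opposite directions. The shares of all genes that did so are not given here. The arrays with estradiol are those of the index given above, and CD68 was 7.23 ± 0.15 in ESR2 cells, against 5.81 ± 0.07 in parental cells. With the index as a covariate 32 passed, 11 higher and 21 lower, among them MAGOHB at -2.44 and TRA2A at -1.87. The part of CD68 was not tested, nor that of the index beyond this covariate.

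Estradiol changed almost none of the regulators in 3 of the 4 settings. In normoxic ESR2 cells 0 of 50 passed with limma, beside 0.0% of all genes, and 7 had an unadjusted p under 0.05, 2 higher and 5 lower, beside 5.38% of all genes. In normoxic parental cells 0 of 50 passed with limma, beside 0.011% of all genes, and 7 had an unadjusted p under 0.05, 3 higher and 4 lower, beside 13.8% of all genes. In hypoxic parental cells 1 of 50 passed, beside 0.0164% of all genes, 0.00548% higher and 0.011% lower. That gene was RSRP1, with 7.12, 7.17 and 6.98 with estradiol, against 8.01, 8.32 and 8.14 without it. The arrays did not overlap, and RSRP1 fell by 1.07 ± 0.13 (limma adjusted p = 0.000383), whereas the mean of its 5 probe sets fell by 0.44 and did not pass (limma adjusted p = 0.0942).

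In hypoxic ESR2 cells estradiol moved 42 regulators, 7 higher and 35 lower, beside 57.0% of all genes, 35.4% higher and 21.6% lower. The median change was -0.34 for the regulators and 0.12 for all genes. Of the 11 SR proteins 1 rose and 8 fell (median -0.79), both TRA2 proteins fell, and of the 15 hnRNP and PTB proteins 2 rose and 11 fell. Of the 6 kinases 3 rose and 2 fell. The 3 arrays with estradiol are also the group with the highest mean 3′ minus 5′ index, 3.42 to 4.01, against 2.00 to 2.19 in hypoxic ESR2 cells without estradiol. The highest single array was replicate 2 of the normoxic parental cells without estradiol, at 4.34. With the index as a covariate 33 regulators passed, 4 higher and 29 lower. The covariate's slope comes from spread within groups, so this count does not measure the part of the index difference between groups. The summed log2 level of 5 leukocyte markers was 20.37 to 20.97 on these arrays, against 17.57 to 18.41 in hypoxic ESR2 cells without estradiol; CD68 was 7.23 ± 0.15 with estradiol, against 5.55 ± 0.25 without it (SD, n = 3 each), and the other 4 markers (PTPRC, CD3E, CD14 and LYZ) stayed under the array median. The part of the index and of these markers in the result was not tested further.

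MAGOHB was 5.12, 5.19 and 5.01 with estradiol, against 7.64, 7.52 and 7.82 without it. TRA2A was 8.13, 8.09 and 7.87 with estradiol, against 9.73, 9.77 and 9.85 without it. Both were lower on every array with estradiol, MAGOHB by 2.55 ± 0.09 (limma adjusted p = 1.84e-15) and TRA2A by 1.76 ± 0.08 (limma adjusted p = 7.7e-14). The other MAGOHB probe set did not pass, as described further on. CLK1 was 8.97, 9.33 and 9.03 with estradiol, against 8.03, 7.85 and 7.87 without it, and rose by 1.20 ± 0.09 with no overlap. Among the SR proteins SRSF8 fell by 1.76, SRSF10 by 1.49, SRSF2 by 1.39, SRSF1 by 1.09 and SRSF4 by 1.07, SRSF11 rose by 0.24, and SRSF3 and SRSF6 (0.03 each) did not pass. SRPK2 fell by 1.12, TRA2B by 1.02 and SON, a scaffold protein of nuclear speckles, by 0.84. The effect of hypoxia in ESR2 cells with estradiol uses the same hypoxic arrays and gave 6 higher and 31 lower, beside 52.3% of all genes, 29.6% higher and 22.6% lower, with -2.80 for MAGOHB, -2.56 for SRSF8 and 1.40 for CLK1.

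**Figure D4:**
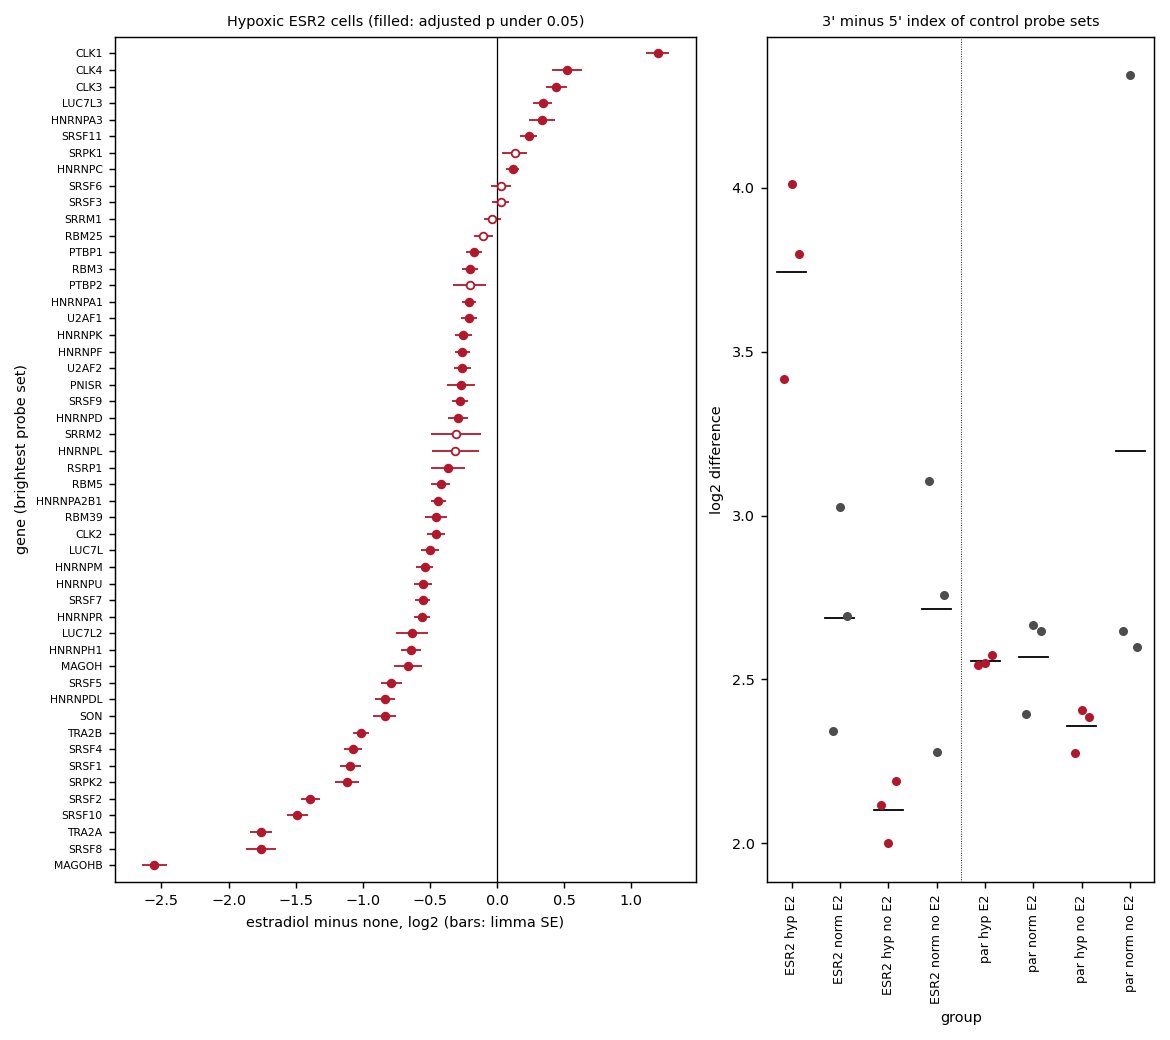
Left, change with estradiol in hypoxic ESR2 cells (log2 with minus without estradiol, ± SE, x axis) of each regulator; right, the 3′ minus 5′ index of the control probe sets (log2, y axis) on each array by group. MAGOHB lies lowest at -2.55 and CLK1 highest at 1.20, and the index of the hypoxic ESR2 arrays with estradiol lies at 3.42 to 4.01, against 2.00 to 2.19 without estradiol.

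Probe sets of 1 gene did not always move alike. The change of each of the 186 further probe sets was compared with that of the brightest one of its gene. Under hypoxia without estradiol 53 of the 186 differed in ESR2 cells, in 32 of the 46 genes that have more than 1 probe set, beside 19.1% of all 27014 further probe sets on the array. In parental cells 65 differed, in 29 genes, beside 24%. Under estradiol in hypoxic ESR2 cells 101 differed, beside 41.3%, and in hypoxic parental cells 2, beside 0.0148%. Between normoxic ESR2 and parental cells 40 differed without estradiol, beside 11% of all, and 25 with estradiol, beside 7.97%. With every probe set tested on its own, 9 of the 46 genes had probe sets that rose and others that fell in hypoxic parental cells without estradiol: CLK4, HNRNPD, HNRNPDL, LUC7L3, PTBP1, RBM5, SRSF3, SRSF5 and SRSF7. The share among all 11822 genes with more than 1 probe set was 2.69%, but the regulators average 4.72 probe sets, against 2.48 for all genes. Among genes with at least 4 probe sets the count was 9 of 31 regulators, against 226 of 3857 genes (5.86%). These counts and shares were not matched for signal. Of the 186 further probe sets of the regulators 157 lay above the median signal of all probe sets, and the part of signal was not tested.

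CLK4 has 9 probe sets. In hypoxic ESR2 cells without estradiol 4 of them rose, by 0.46 to 0.86, and the brightest, 11760313_a_at, fell by 0.38. That fall did not pass without replicate 1 of the hypoxic ESR2 cells, at -0.25 (limma adjusted p = 0.105). In hypoxic parental cells the brightest fell by 0.35, while 11756853_a_at was 6.46, 6.70 and 6.43 in hypoxic parental cells, against 4.73, 4.38 and 4.50 in normoxic ones. That probe set rose by 1.99 ± 0.11 with no overlap, and 11726515_a_at, 11726516_s_at, 11748024_a_at and the dim 11726514_a_at rose by 1.92, 1.80, 1.70 and 0.76. The difference of 11756853_a_at from the brightest was 2.34 ± 0.18 (limma adjusted p = 1.28e-09).

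HNRNPDL, an hnRNP D-like protein, has 5 probe sets. In hypoxic parental cells the brightest fell by 0.30, 11746949_x_at fell by 0.31, 11720626_s_at rose by 0.94 and 11762863_a_at by 1.86. The last of these was 5.88, 6.26 and 6.20 in hypoxic parental cells, against 4.40, 4.05 and 4.33 in normoxic ones, with no overlap. SRSF7 fell in 3 of its 4 probe sets, by 0.62 to 0.74, in parental cells, while the 4th rose by 1.18 in ESR2 cells and 0.46 in parental cells.

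For LUC7L3 and HNRNPR the brightest probe set did not pass while others did. LUC7L3 had a log2 difference of -0.01 in its brightest probe set in hypoxic parental cells, while 11739090_at rose by 2.08 and 11739092_a_at fell by 0.80. HNRNPR had log2 differences of -0.02 and -0.06 in its brighter pair of probe sets, while 11758936_at rose by 1.49. SRSF9 rose by 0.23 in its brightest probe set and by 1.59 in 11760259_at. Conversely, all 3 CLK1 probe sets rose, by 1.19 to 1.60, and so did all 3 of CLK2, by 0.88 to 1.11. The probe sequences were not used here, so that which exon each probe set reads is not given.

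Under estradiol in hypoxic ESR2 cells probe sets of HNRNPM and of MAGOHB differed by more than 2 log2 units. The brightest HNRNPM probe set fell by 0.54, while 11761514_at was 9.85, 9.89 and 9.97 with estradiol, against 7.69, 7.89 and 8.23 without it, a rise of 1.96 ± 0.15 with no overlap. Its difference from the brightest was 2.50 ± 0.18 (limma adjusted p = 2.9e-10). MAGOHB fell by 2.55 in its brightest probe set and had a log2 difference of -0.08 in the other, which did not pass; the other minus the brightest was 2.47 ± 0.14 (limma adjusted p = 1.33e-11). All 4 TRA2A probe sets above the array medians fell, by 1.76, 2.02, 2.07 and 3.53. The 5th, a dim one with a mean of 3.25 over the 24 arrays, rose by 0.26 (limma adjusted p = 0.0495). In SRSF6 the brightest had a log2 difference of 0.03 and did not pass, and 11745822_x_at fell by 1.03. HNRNPA1, whose transcript has many processed copies in the genome, fell in all 5 probe sets, by 0.21 in the brightest and by 1.20 in 11753459_x_at.

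**Figure D5:**
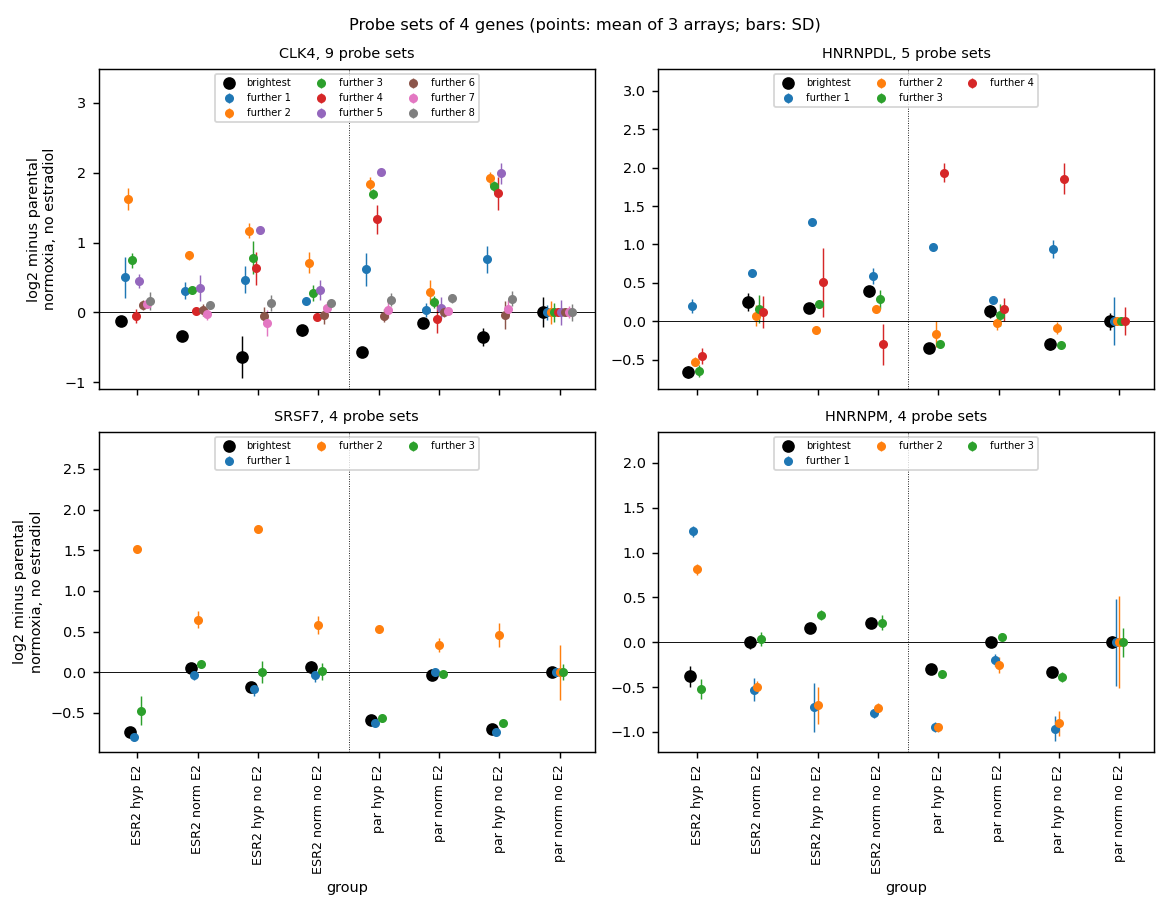
Log2 signal of every probe set of CLK4, HNRNPDL, SRSF7 and HNRNPM as the difference from its mean in normoxic parental cells without estradiol (y axis), in the 8 groups (x axis); points are means of 3 arrays and bars their SD. Further probe sets are numbered by ID, and 11756853_a_at is number 5 of CLK4. The brightest CLK4 probe set lies at -0.35 in hypoxic parental cells without estradiol and 11756853_a_at at 1.99.

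Other genes of the splicing pathway were read against the shares over all genes given above. Of 39 measured core spliceosome genes, those of the snRNPs and their helicases, 3 rose and 12 fell in hypoxic ESR2 cells without estradiol (median -0.14), which is 38.5% beside 32.6% of all genes. In hypoxic parental cells without estradiol 3 rose and 19 fell (median -0.20), which is 56.4% beside 37.5% of all genes. In parental cells EFTUD2, the GTPase of the U5 snRNP, fell by 0.89, SNRNP40, another U5 protein, by 0.87 and PRPF31, a U4/U6 protein, by 0.54. PRPF19, a ubiquitin ligase of the active spliceosome, rose by 1.05 in ESR2 cells, and its interaction was 1.88 ± 0.17. Of 10 genes of the exon junction complex and nonsense-mediated decay, which act after splicing, 0 rose and 3 fell in hypoxic ESR2 cells (median -0.06), a share near that of all genes, and 0 rose and 7 fell in hypoxic parental cells (median -0.47), which is 70% of the list. There UPF1, the helicase of the decay pathway, fell by 0.72, CASC3 by 0.59 and RBM8A, the partner of MAGOH, by 0.47; the interaction of UPF1 was 0.92 ± 0.13. With estradiol in hypoxic ESR2 cells 10 of the 39 rose and 18 fell (median -0.15), which is 71.8% beside 57.0% of all genes, with DHX15, a helicase that takes spent spliceosomes apart, lower by 1.11. Of the 10 decay and junction genes 0 rose and 5 fell (median -0.28), which is 50% beside the same 57.0%, with UPF1 lower by 1.25.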

How the data were processed

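The authors' deposited values are log2 signals per probe set, made with RMA (background correction, quantile normalization and summary), with affy named too, per the submitters' processing notes. Their versions were not given in the sources used here. RMA compresses changes of dim probe sets. Of 49386 probe sets 45253 carry a single symbol in the platform annotation of GEO, 1327 carry several and 2713 none, and 93 are controls. They name 18239 genes, each followed by its brightest probe set (mean over 24 arrays), without a filter on dim genes.

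A mean for each of 8 groups was fitted with limma 3.58.1 (lmFit and eBayes) in R 4.3.3 for 14 comparisons, leaving 16 residual degrees of freedom. P-values were adjusted by Benjamini-Hochberg over all genes within a comparison, with a threshold of 0.05. Differences between a further and the brightest probe set were fitted in the same way over 27014 probe sets, and each of the 45253 probe sets was also tested alone. Errors are limma's SE for changes and the SD for group means. The precision is limited by 3 arrays a group. Version 3.10.9 of matplotlib in Python 3.11.15 drew the figures, and data.table (version 1.17.8) read the input. The fits were tested on simulated data.

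In each comparison the text names up to 10 regulators that passed with groups that do not overlap, by size of change, and others to account for a role or a disagreement between probe sets; these others were picked with their values in view. The members and the lists were chosen with earlier results of these data known. Alternatives changed the normalization, the filter, the choice of probe set, the variance model and the arrays in the fit. Others added a replicate block, array weights or the 3′ minus 5′ index as a covariate, or left out single arrays. The slope of that covariate comes from the spread of the index within groups.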

Additional observations from a re-analysis of the deposited data

Results flagged for a closer look

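The results below are those in which the change under hypoxia differed between ESR2 and parental cells, tested as limma's interaction with adjustment over all genes; among the regulators that passed, the 10 with the largest interaction without estradiol and the 10 with the largest one with estradiol are given. Without estradiol the change in ESR2 cells minus that in parental cells was -2.13 for RSRP1, 1.86 for SRSF5, 1.46 for LUC7L, 1.41 for RBM5, 1.33 for MAGOH, 1.06 for SRSF8, -1.01 for CLK1, 0.90 for SRSF2, 0.73 for SRSF6 and 0.71 for SRSF3. With estradiol it was -1.96 for TRA2A, -1.89 for MAGOHB, -1.47 for RSRP1, -1.31 for SRSF4, -1.25 for SRPK2, -1 for SRSF10, -0.99 for CLK2, -0.96 for SRSF8, 0.95 for LUC7L and -0.87 for LUC7L2. RSRP1 and LUC7L kept the sign of their interaction in both settings, while SRSF8 was positive without estradiol and negative with it. All of these are values of the brightest probe sets. With every probe set tested on its own, probe sets of SRSF5 without estradiol and of TRA2A with it had interactions called in both directions. The other MAGOHB probe set did not pass under estradiol in hypoxic ESR2 cells, as given above. The values with estradiol rest on the hypoxic ESR2 arrays with the highest group mean of the 3′ minus 5′ index. With the index as a covariate 31 regulators passed, beside 31 without it. The covariate's slope comes from spread within groups, which was largest in normoxic parental cells without estradiol (SD 0.99). These counts therefore do not measure the part of the index difference between groups, which was not tested. Without estradiol the index differed between groups too, with the lowest group mean in hypoxic ESR2 cells, and its part there was not tested either. No test for outlying values was run within groups, which hold 3 arrays each.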

How the results depend on the processing

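The counts of regulators that passed under hypoxia, in hypoxic ESR2 against hypoxic parental cells, under estradiol in hypoxic ESR2 cells and in both interactions stayed within 1.5 times under every alternative run. With single arrays left out they were 22 to 26 for hypoxia in ESR2 cells and 31 to 36 in parental cells, both without estradiol, and 38 to 43 for estradiol in hypoxic ESR2 cells. Over the 50 regulators, leaving out 1 array at a time ended the call of 7 for hypoxia in ESR2 cells and 3 in parental cells without estradiol, 3 and 4 with it, 6 with and 2 without estradiol between the cells in hypoxia, and 4 for estradiol in hypoxic ESR2 cells; this count was chosen after seeing the data. The small counts moved, and the cause was not tested. For ESR2 against parental cells in normoxia without estradiol, 11 regulators became 17 with the mean of all probe sets, 19 with array weights, 6 with only the groups compared, and 6 to 15 with single arrays left out (7 without replicate 1 and 6 without replicate 2 of the normoxic ESR2 cells). With estradiol, 6 became 14 with the mean of all probe sets and 10 with array weights, and 5 to 7 with single arrays left out. The single call for estradiol in hypoxic parental cells became 0 with the mean of all probe sets. Disagreeing probe sets for ESR2 against parental cells in normoxia numbered 40 without estradiol and 22 to 39 with single arrays left out, 22 without replicate 2 of the normoxic parental cells and 25 without replicate 1 of the normoxic ESR2 cells. With estradiol they numbered 25, and 10 to 35 with single arrays left out, 10 without replicate 1 of the parental cells and 13 and 14 without replicates 2 and 3 of the ESR2 cells. For estradiol in hypoxic parental cells there were 2, with 1 among bright probe sets and 1 to 3 with single arrays left out, and in hypoxic ESR2 cells 101, with 67 once the 3′ minus 5′ index was a covariate. Leaving out single arrays for disagreeing probe sets was chosen after seeing the data.

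Alternatives were also followed for the regulators picked in each comparison for the largest changes that passed, without overlap where groups were compared. Of 1787 such values, 1770 kept their direction and side of the threshold, 15 lost significance and 2 turned sign. The sign turned with the mean of all probe sets, for HNRNPM (-0.27) and LUC7L3 (-0.079) in ESR2 against parental cells in normoxia without estradiol. Picking the largest changes favours stable values, so this count does not describe the other regulators named in the text. The calls that CLK4, PTBP2 and LUC7L2 lost for hypoxia in parental cells without estradiol, given above, lie outside it. Same-numbered replicates did not correlate above 0.1 in every pair of any comparison, so the numbers were not taken as pairs; with a replicate block 24 regulators passed for hypoxia in ESR2 cells and 34 in parental cells, both without estradiol, and no count of regulators moved by more than 1. No scaling moved the median of all genes by over 0.1. The signal of dim probe sets, near the array medians of 4.07 to 4.13, limits what can be seen in them, and 3 arrays a group limit all errors.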
